A study of Mus musculus with 6 samples.

Results

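The genes described are the ubiquitin-conjugating enzymes, or E2 enzymes, of mouse skeletal muscle. They were taken as the protein-coding genes whose symbol starts with Ube2 and a letter and whose FPKM was above 0 in at least 1 library. FPKM is fragments scaled to gene length and to the depth of the library, so levels of different genes can be set beside each other. By that rule 34 of 41025 listed genes were members. Another 3 protein-coding genes with such symbols, Ube2dnl1, Ube2dnl2 and Ube2u, were listed at 0 in all 6 libraries. One of the 34, Ube2cbp, carries the name of a protein that binds Ube2c and is not itself an E2. The RNA came from the tibialis anterior, a fast muscle of the lower hind limb, of C57BL/6 mice aged 8 weeks. There were 3 libraries labelled wild type and 3 labelled Mettl21e knockout, Mettl21e being a gene of a family of lysine methyltransferases, and no treatment was named for either group. The design calls the replicates biological without saying whether each was 1 mouse, so p-values measure only the spread between these libraries. The sources used here do not say how the deletion was made or which part of the gene it removed.

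An E2 enzyme takes activated ubiquitin, or a ubiquitin-like protein such as SUMO, NEDD8 or ISG15, from an E1 enzyme onto a cysteine in its active site. With an E3 ligase it then passes that protein to a substrate, and the E2 often decides which lysine of ubiquitin extends the chain. In muscle, E2 enzymes work with ligases such as Trim63 (MuRF1) in the turnover of contractile proteins by the proteasome, and Ube2b is known as an E2 whose mRNA is high in muscle.

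The coding windows below are shown because they hold the cysteine that carries ubiquitin, and they place at least 1 member of each role side by side. Each runs 5′ to 3′ from the codons for His-Pro-Asn, a motif of many E2 enzymes, past the next cysteine codon. Capitals mark those 3 codons and the cysteine codon. The windows come from GENCODE M21 transcripts of GRCm38 (mm10), on the coding strand.
Ube2b: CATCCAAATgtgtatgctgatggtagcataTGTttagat
Ube2a: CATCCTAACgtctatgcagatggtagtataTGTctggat
Ube2d3: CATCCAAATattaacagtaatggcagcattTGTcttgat
Ube2d1: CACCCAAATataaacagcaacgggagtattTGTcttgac
Ube2m: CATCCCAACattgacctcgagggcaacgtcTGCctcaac
Ube2g2: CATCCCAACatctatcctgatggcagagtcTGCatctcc
Ube2s: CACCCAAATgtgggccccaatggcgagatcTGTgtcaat
Ube2l6: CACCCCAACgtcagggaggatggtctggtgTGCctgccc
Ube2n: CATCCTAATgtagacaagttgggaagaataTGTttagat
Ube2h: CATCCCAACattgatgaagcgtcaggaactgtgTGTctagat
The codons for His-Pro-Asn followed by a cysteine codon within 15 codons occurred in 20 of the 34 members and in 258 of 21620 coding genes (1.19%). The spacing from His to Cys was 10 codons in 18 of those 20 members and 11 codons in Ube2h and Ube2k. In Ube2b the His codon was number 78 and the Cys codon number 88, counted from the start codon. Ube2a had the same positions. Ube2v1 and Ube2v2, which are known as variants without a catalytic cysteine, had no match, and neither did 12 others, among them the E, J, Q and W members. No match says only that those codons were not found in that order.

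Depth and labels set the limits of every value below. The FPKM values could be turned back into whole fragments, and the libraries then held 8476591 to 10856669 fragments, of which 19623 to 25460 fell on the 34 members. For a gene of 1 kb a single fragment amounted to 0.0921 to 0.118 FPKM. Mettl21e itself read 2.46, 0.309 and 1.23 FPKM in wild-type libraries 1, 2 and 3 by label, against 1.64, 1.45 and 1.88 FPKM in the knockout ones. It was therefore not lower in the libraries labelled knockout (exact two-sided permutation test over 20 splits, p = 0.7, where the smallest p possible is 0.1), and the groups are named by their labels throughout. Fast-fibre markers, 11 genes such as Acta1 and Ckm, summed to 89312 to 96362 FPKM per library, and none was at 0. Library 3 labelled wild type stood apart in proliferation markers, with Mki67 at 1.10 FPKM against at most 0.0457 in the other 5. In such bulk RNA, fewer cells of a type and less RNA per cell cannot be told apart.

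Ube2b was the most abundant E2 mRNA in every library, at a mean of 679 FPKM, which placed it 93rd among all genes. Its level was 5.30 times that of Ube2d3, the next member. It made up 40.1% ± 2.70 (SD, n = 6) of the summed FPKM of the family, with a range of 37.0% to 43.6%. The 6 most abundant members, Ube2b, Ube2d3, Ube2m, Ube2r2, Ube2g2 and Ube2d1, together held 70.5% of that sum. Of all members, 4 were at 100 FPKM or more, 23 at 10 or more, 7 between 1 and 10, and 4 below 1. The median member had 19.4 FPKM, against 8.72 for the 11383 genes averaging 1 FPKM or more. The whole family held 0.237% to 0.259% of the FPKM of all genes in a library.

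**Figure D1:**
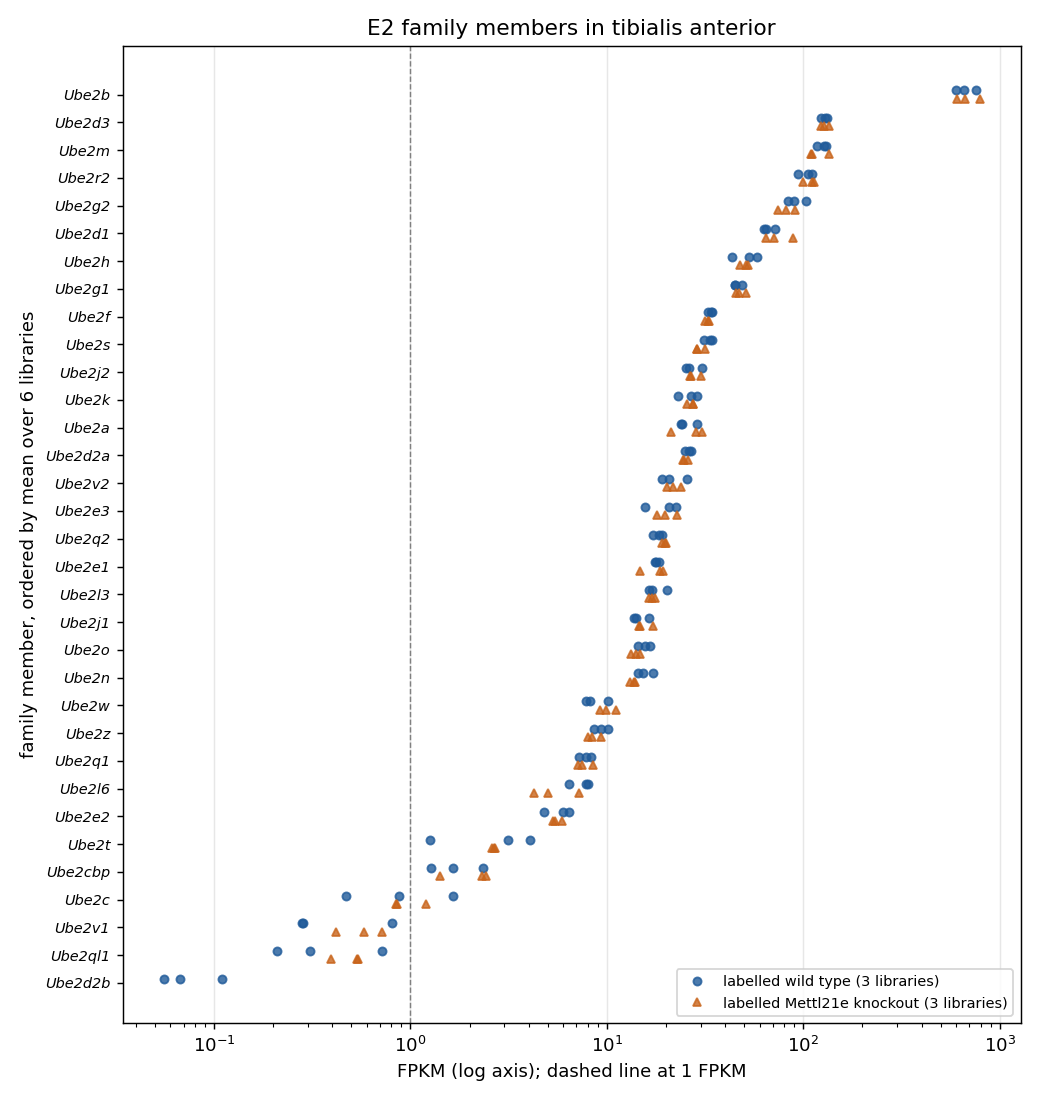
FPKM of 33 members in each of the 6 libraries, on a log axis, with members in order of their mean. Circles and triangles are libraries labelled wild type and knockout, and the zeros of Ube2d2b in the libraries labelled knockout cannot be drawn on this axis. Ube2b lies alone at a mean of 679 FPKM, and the points of the 2 labels lie over each other for nearly every member.

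The order of the members was stable at the top and close below it. Ube2b was first in all 6 libraries, and Ube2d3 and Ube2m took the next places in either order. Among the 12 most abundant members no rank varied by more than 2 places between libraries, and over all members by no more than 5. Neighbours in the order were rarely separated: of 33 adjacent pairs, only 6 had values that did not overlap across the 6 libraries. They included Ube2b and Ube2d3, Ube2d1 and Ube2h, Ube2n and Ube2w, Ube2e2 and Ube2t, and Ube2ql1 and Ube2d2b.

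The ranks depend on the gene length behind each FPKM value. The lengths recovered from the files ran from 750 to 3997 bases, and only Ube2z had a length exactly equal to the exon union of the annotation. Ube2d2b (1677 against 1678) and Ube2ql1 (2679 against 2674) were within a few bases of it. For Ube2b the recovered length was 825 bases against an exon union of 2126, and for Ube2d3 it was 2484 against 24499. In fragments not divided by any length, Ube2b was still first in every library, with 1.54 to 1.95 times the fragments of the next member, but its share of the family was 24.6%. Per exon-union base its share was 43.7%, and Ube2d3 took place 9. Ube2n moved most in the other direction, from place 23 by FPKM to place 11 by fragments and place 8 per exon-union base. These length settings were chosen after seeing the data.

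Between the labels, no E2 member differed past the test. Across all 11383 tested genes none passed either (limma on log2(FPKM + 1), Benjamini-Hochberg adjusted p below 0.05, 0% called), so the family cannot stand apart by that count. At an unadjusted limma p below 0.05 there were 0 of the 30 tested members, while 523 of all tested genes (4.59%) reached it. With limma voom on the recovered fragments, 0 genes were called and 468 had an unadjusted p below 0.05. Of the 30 members, 16 had the higher mean and 14 the lower mean under the knockout label, with a median log2 difference of 0.01, against -0.02 for all tested genes. After subtraction of each library's median the lower members numbered 10 and the higher ones 20. The range of the members' log2 differences was -0.39 (Ube2l6) to 0.19 (Ube2w), and their adjusted p-values were 0.988 to 0.9998 (limma).

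The size of difference that these data leave room for is set by the intervals. For 27 of 30 members (90%) the 95% interval of the difference lay within 1.5-fold in either direction, against 80.5% of all tested genes. For all 30 it lay within 2-fold. The 3 members with wider intervals were Ube2l6 (ratio 0.577 to 1.005 of FPKM + 1), Ube2t (0.662 to 1.55) and Ube2cbp (0.808 to 1.52), all below 10 FPKM. The median coefficient of variation over the 6 libraries was 8.90% for the members and 12.5% for all tested genes. The median member also had the higher level, 19.4 FPKM against 8.72. Neither this comparison nor that of the intervals was matched for level. The steadiest member was Ube2f at 2.87%, and Ube2t varied most among those tested at 33.1%. In a single member, Ube2n, the values of the 2 labels did not overlap, while 9.48% of all tested genes had that property.

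**Figure D2:**
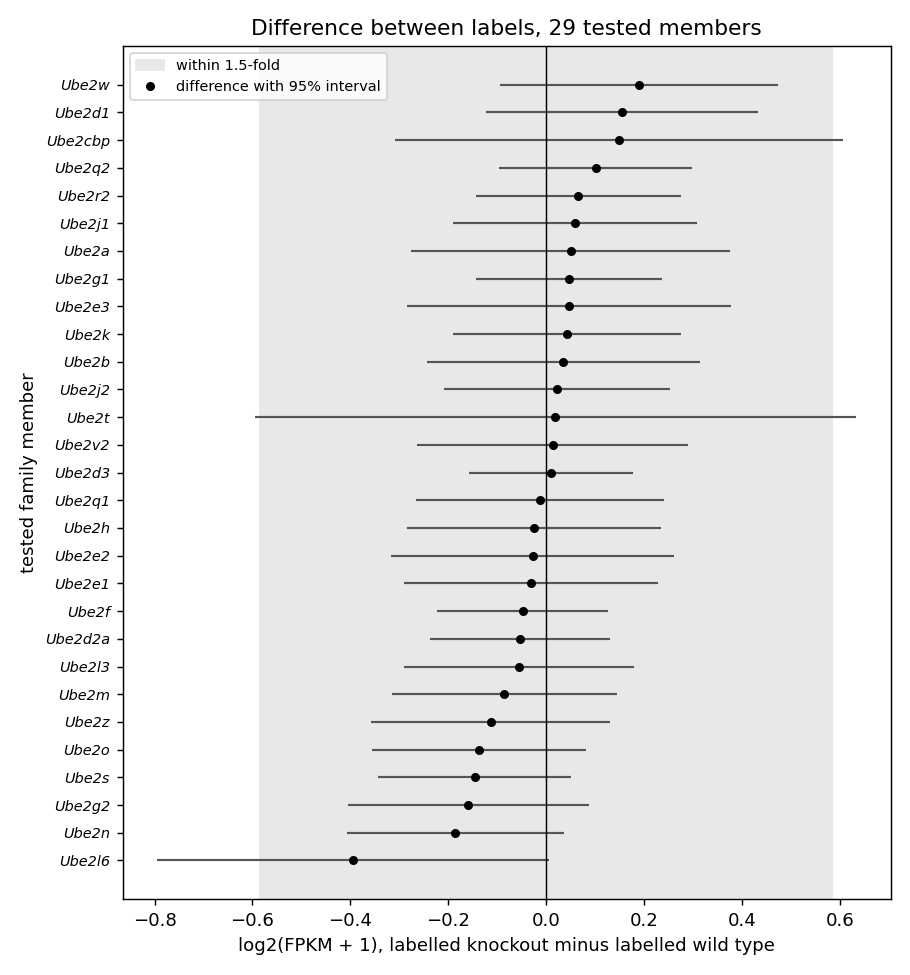
Difference in log2(FPKM + 1), libraries labelled knockout minus libraries labelled wild type, for 29 of the 30 tested members (points) with 95% intervals from limma (lines). The grey band spans 1.5-fold in either direction. Every interval contains 0, and 26 of the 29 stay inside the band.

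The RAD6 pair and Ube2t serve DNA repair, and the RAD6 pair also serves the N-degron pathway. Ube2b, which pairs with the ligases Rad18, Ubr1 and Ubr2, lies on chr11:51985497-52000762 of mm10, minus strand. Its FPKM was 756, 597 and 658 for replicates 1, 2 and 3 labelled wild type, against 606, 667 and 791 for those labelled knockout. The groups overlapped, since library 1 of one label and library 3 of the other were the 2 highest. The means were 670 ± 80.2 and 688 ± 94.5 FPKM (SD, n = 3 each), a log2 difference of 0.04 (SE 0.12, 95% interval -0.24 to 0.31). Each of these values rested on 4803 to 6704 fragments.

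Ube2a, the other mammalian RAD6 gene, lies on chrX:36873900-36884222, plus strand. Its coding sequence shared 77.6% of bases with that of Ube2b, and 95.4% of codons had the same meaning. Even so its FPKM was 28.8, 24.1 and 23.8 in libraries labelled wild type against 30.4, 21.3 and 28.5 in those labelled knockout. The log2 difference between labels was 0.05 (SE 0.14). Ube2b stood 19.96 to 31.4 times above Ube2a in the same library, with ratios of 26.2 ± 1.41 and 26.4 ± 5.83 for the 2 labels. Neither gene shared a 50-base word of its exons with another gene.

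The promoters of this pair are shown because 2 genes with near-identical proteins differed so widely in level. They are the 250 bases before the RefSeq start (GRCm38.p6), 5′ to 3′ on the strand of the gene: chr11:52000787-52001036, minus strand, for Ube2b and chrX:36874045-36874294, plus strand, for Ube2a. The Ube2a window lies inside the gene interval given above, because the RefSeq start used here is downstream of the GENCODE start. Capitals mark CACGTG, the E-box that basic helix-loop-helix zipper factors such as USF are known to bind.
Ube2b: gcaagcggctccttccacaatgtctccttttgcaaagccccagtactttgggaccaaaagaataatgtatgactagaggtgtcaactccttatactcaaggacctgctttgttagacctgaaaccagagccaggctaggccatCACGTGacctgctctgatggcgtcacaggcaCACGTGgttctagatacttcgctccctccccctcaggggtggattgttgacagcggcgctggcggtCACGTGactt
Ube2a: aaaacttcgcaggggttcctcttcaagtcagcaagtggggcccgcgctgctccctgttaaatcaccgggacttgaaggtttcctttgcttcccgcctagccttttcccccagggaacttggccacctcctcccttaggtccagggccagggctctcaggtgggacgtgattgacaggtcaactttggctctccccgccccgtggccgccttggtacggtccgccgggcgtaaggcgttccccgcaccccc
The motif CACGTG, which reads the same on both strands, occurred 3 times in the Ube2b window and 0 times in that of Ube2a. It was searched for only after the Ube2b sequence had been seen. Of 27025 genes with a promoter entry, 6.05% held it at least once and 18 (0.0666%) at least 3 times. The longer form TCACGTGA, which contains it, was found for Ube2b and Ube2q1 among the members and for 0.803% of all genes. A match describes letters and shows no binding.

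Promoter entries existed for 27 of the 34 members, and most were of the CpG-rich kind. The median GC content of these windows was 65.2%, against 52% over all genes, and the median ratio of observed to expected CpG was 0.805 against 0.378. The ratio was above 0.6 in 23 of the 27 (85.2%) and in 34.5% of all genes. On either strand, GGGCGG, the GC box, was present in 18 of 27 (66.7%) against 32.9%, and TATAAA, the TATA box, in 2 (7.41%) against 13%. CCGGAAG, an ETS core, occurred in 5 (18.5%) against 7.05%, and CAGCTG, an E-box of the myogenic type, in 5 (18.5%) against 12.8%. CCAAT was in 7 (25.9%) against 34.5%. These shares are descriptions, and all genes here means the 27025 with a promoter entry, whatever their level in muscle. No comparison with expressed genes alone was made. Ube2b, the most abundant member, had neither GGGCGG nor TATAAA, and its CpG ratio was 0.511.

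The D and E classes, which work with many RING ligases, were summed together with Ube2l3 and Ube2w. The sum was 290.4 ± 11.6 FPKM in libraries labelled wild type against 299 ± 23.6 in those labelled knockout. That was 17.4% of the family. Ube2d3 (chr3:135438149-135468198, plus strand) read 132, 129 and 123 FPKM in the first label and 124, 128 and 135 in the other. The highest value was a library labelled knockout and the lowest one labelled wild type, the groups overlapped, and they gave a log2 difference of 0.01 (95% interval -0.16 to 0.18), the smallest standard error in the family (0.0731). Ube2d1 read 72.1, 63.2 and 64.9 against 65.0, 71.0 and 88.8 FPKM, so that its highest value was library 3 labelled knockout and the rest overlapped. Its log2 difference was 0.16 (-0.12 to 0.43), but 0.028 without that library and 0.25 without library 1 labelled knockout.

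Within the D class the closest protein was not the nearest in level. Ube2d2a shared 97.3% of codon meanings with Ube2d3, and Ube2d1 shared 88.4%. Ube2d3 was nevertheless 4.59 to 5.24 times as high as Ube2d2a and only 1.52 to 2.04 times as high as Ube2d1. The pseudogene Ube2d-ps, which is no member, had a mean of 20.7 FPKM. In the E class, Ube2e3 (mean 19.9 FPKM) and Ube2e1 (17.8) lay above Ube2e2 (5.65), with Ube2e3 at 2.45 to 4.33 times Ube2e2. Ube2l3, which serves HECT and RBR ligases such as parkin, had a mean of 17.4 FPKM.

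Ube2w, which places ubiquitin on the amino terminus of proteins, had the most positive difference of the tested members. Its FPKM was 10.1, 7.87 and 8.20 in libraries labelled wild type against 9.17, 9.86 and 11.2 in those labelled knockout. The groups overlapped, because library 1 labelled wild type exceeded 2 of the 3 libraries labelled knockout. The log2 difference was 0.19 (SE 0.12, 95% interval -0.09 to 0.47, limma unadjusted p = 0.162, adjusted p = 0.988). It was 0.12 without library 3 labelled knockout and 0.29 without library 1 labelled wild type.

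E2 enzymes for K48 chains and for degradation at the endoplasmic reticulum (ERAD) summed to 309.9 ± 7.56 FPKM in libraries labelled wild type against 308 ± 17.2 in those labelled knockout. Ube2r2, an E2 of SCF ligases, read 111, 105 and 93.7 against 114, 99.9 and 110.4 FPKM, with a log2 difference of 0.07. Ube2g2, an E2 of ERAD ligases, lies on chr10:77622275-77645993, plus strand. It read 83.7, 89.4 and 103 FPKM in libraries labelled wild type against 91.2, 81.3 and 74.6 in those labelled knockout. Library 1 labelled knockout lay inside the other group, so the values overlapped, and the log2 difference was -0.16 (SE 0.11, 95% interval -0.41 to 0.09). Without library 3 labelled wild type it was -0.075, and without library 3 labelled knockout -0.091.

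The values of the other ERAD members overlapped between labels too. Ube2g1 read 48.9, 44.9 and 44.9 FPKM against 51.0, 47.2 and 45.4, and Ube2g2 was 1.64 to 2.29 times as high in the same library. Ube2j2, which is anchored in the endoplasmic reticulum membrane, read 30.5, 25.3 and 26.3 against 30.01, 27.0 and 26.4 FPKM. It was 1.58 to 2.16 times as high as Ube2j1, its paralog. Ube2k, which builds K48 chains on its own, had a mean of 26.5 FPKM and a log2 difference of 0.04.

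E2 enzymes for ubiquitin-like proteins held 12.7% of the family, with sums of 218 ± 8.32 and 210.2 ± 11.2 FPKM for the 2 labels. Ube2m, the main NEDD8 E2 of cullins (chr7:13035120-13038275, minus strand), read 128, 131 and 117 FPKM in libraries labelled wild type against 135, 109.8 and 110.5 in those labelled knockout. Its highest value was a library labelled knockout and so were its 2 lowest, with a log2 difference of -0.08 (95% interval -0.31 to 0.14). Ube2f, the second NEDD8 E2, which serves Cul5, read 32.8, 34.3 and 33.8 against 31.6, 32.7 and 33.2 FPKM, and Ube2m was 3.32 to 4.28 times as high.

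Ube2l6, the E2 for ISG15 and an interferon-induced gene (chr2:84798828-84810335, plus strand), had the smallest unadjusted p of the family. Its FPKM was 6.41, 7.98 and 7.79 in libraries labelled wild type against 4.23, 5.004 and 7.21 in those labelled knockout, from 37 to 78 fragments each. Library 3 labelled knockout lay above library 1 labelled wild type, so the groups overlapped. The means were 7.39 ± 0.860 and 5.48 ± 1.54 FPKM (SD, n = 3), with a log2 difference of -0.39 (SE 0.17, 95% interval -0.79 to 0.01, limma unadjusted p = 0.0532, adjusted p = 0.988). Without library 1 labelled knockout the log2 difference was -0.25, and without library 3 of that label it was -0.58, with adjusted p of 0.864 and 0.9991 (limma).

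Several gene lists were lower under the knockout label together with Ube2l6. All 11 tested genes of the interferon and ISG15 list were lower in the libraries labelled knockout, with a median log2 difference of -0.22, while 56.7% of all tested genes were lower. None passed the adjusted test (limma). Isg15, whose protein this E2 carries, read 1.48, 2.19 and 1.80 FPKM against 0.954, 1.14 and 0.936. These values rested on only 12, 18 and 12 against 7, 9 and 6 fragments. The Isg15 groups did not overlap, a pattern that 5.64% of all tested genes had in this direction. Of 10 macrophage and leukocyte markers 5 were tested and all 5 were lower, with sums of 16.3 to 180.4 FPKM in libraries labelled wild type and 14.8 to 34.2 in those labelled knockout, and none of the 10 was at 0 throughout. The same direction held for all tested markers of slow fibres (7, median log2 difference -1.27, 4 at an unadjusted limma p below 0.05), fibroblasts (6, -0.44), adipocytes (4, -0.36) and endothelium (6, -0.08), so lower values were not particular to interferon or leukocyte genes. The largest median was that of slow fibres, whose markers summed to 285 to 571 FPKM in libraries labelled wild type against 254 to 370 in those labelled knockout. Not all marker lists went one way. Under the knockout label 8 fast-fibre markers were higher and 3 lower (median log2 difference 0.05), and 2 erythroid markers were higher and 5 lower (-0.11). The part of these cells and fibres in the Ube2l6 values was not tested.

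Ube2n (Ubc13) builds K63 chains together with a catalytically inactive partner, Ube2v1 or Ube2v2. It lies on chr10:95515145-95545657, plus strand, and read 17.2, 15.2 and 14.5 FPKM in libraries labelled wild type against 13.9, 13.7 and 13.2 in those labelled knockout. All 3 values of the second label lay below all 3 of the first, a pattern that 5.64% of all tested genes had in this direction and 3.84% in the other. The means were 15.6 ± 1.40 and 13.6 ± 0.366 FPKM, with a log2 difference of -0.19 (SE 0.10, 95% interval -0.41 to 0.04, limma unadjusted p = 0.0898, adjusted p = 0.988). After subtraction of each library's median the groups of Ube2n overlapped, and without library 1 labelled wild type the log2 difference was -0.12. The nearest values, 14.5 and 13.9 FPKM, came from 493 and 519 fragments. Ube2n shared 9.51% of its 50-base words with other genes, chiefly Ube2n-ps1, itself at a mean of 0.849 FPKM.

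Of the partners, Ube2v2 was the one clearly measured. It read 25.4, 19.2 and 20.7 FPKM against 20.2, 21.7 and 23.7, with overlapping groups and a log2 difference of 0.01. It was 1.26 to 1.80 times as high as Ube2n in the same library. Ube2v1 had only 3 to 7 fragments per library (0.280 to 0.803 FPKM). That value is uncertain, since 61.5% of its exon bases lie in the same-strand gene Gm20431, which was itself listed at 0.

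**Figure D3:**
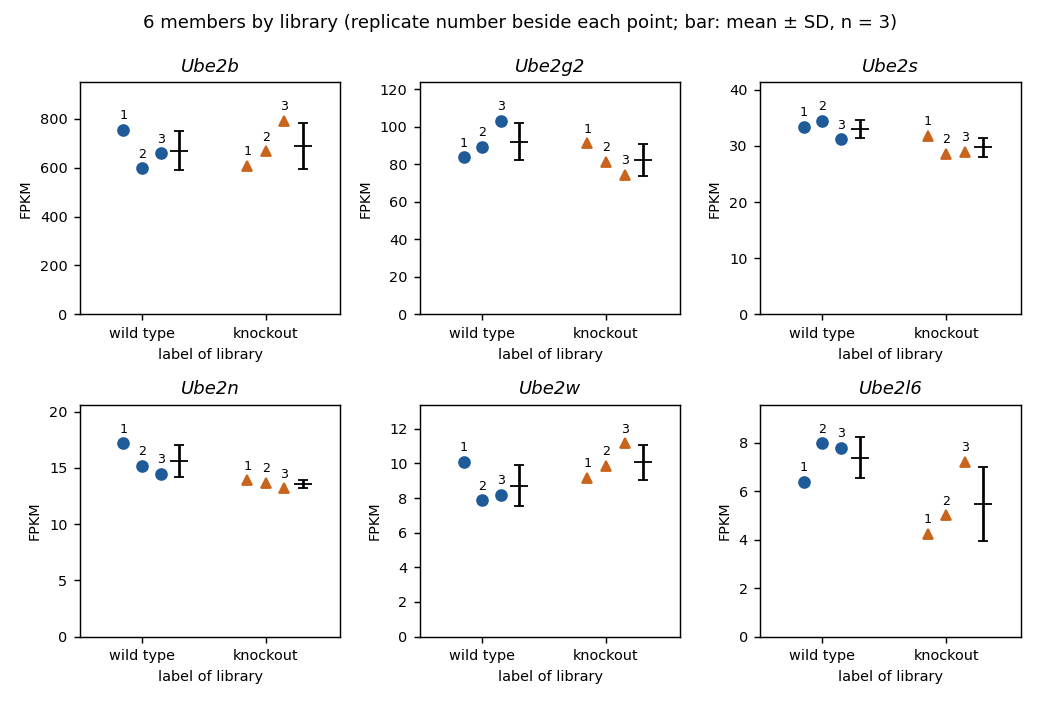
FPKM of 6 members in each library, on linear axes that start at 0, with the replicate number beside each point and bars for mean ± SD (n = 3 per label). The labels overlap for Ube2b, Ube2g2, Ube2s, Ube2w and Ube2l6, and for Ube2n the lowest library labelled wild type, at 14.5, lies above the highest labelled knockout, at 13.9.

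Ube2s and Ube2c extend and start K11 chains with the anaphase-promoting complex in mitosis. Ube2s (chr7:4794546-4812590, minus strand) read 33.4, 34.4 and 31.2 FPKM in libraries labelled wild type against 31.8, 28.6 and 28.9 in those labelled knockout. Library 1 labelled knockout kept the groups from separating, and the log2 difference was -0.15 (95% interval -0.34 to 0.05). Of its exon bases 3.56% lie opposite Rpl28, a ribosomal protein gene at a mean of 301 FPKM. Ube2c was near the limit, at 0.471, 0.875 and 1.65 against 0.848, 0.850 and 1.195 FPKM from 8 to 23 fragments. Its highest value was library 3 labelled wild type, where Mki67 and Top2a were also highest, and so was that of Ube2t, a Fanconi anaemia E2, at 3.13, 1.25 and 4.04 against 2.65, 2.60 and 2.70 FPKM. The 9 proliferation markers summed to 0.635 to 9.58 FPKM in libraries labelled wild type and 0.954 to 1.22 in those labelled knockout, and none had a mean high enough to be tested. Their part in the Ube2c and Ube2t values was not tested. In addition 22.8% of the exon bases of Ube2c lie opposite Tnnc2, the fast troponin C gene, which was listed at a mean of only 0.809 FPKM. The Ube2c value is therefore uncertain, and how fragments were assigned between these genes was not tested.

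The larger or extended E2 enzymes held 5.51% of the family. Ube2h, the E2 of the CTLH ligase and known from red cell maturation, read 43.6, 58.3 and 52.8 FPKM against 52.6, 47.5 and 51.1, with its lowest and highest values in the same label. Its log2 difference was -0.02, and it was 0.02 after subtraction of each library's median. Of its 50-base words 44.2% are shared, mostly with the lincRNA Gm26526, itself at a mean of 0.169 FPKM. Ube2o, a combined E2 and E3 that acts on ribosomal and globin proteins, read 14.4, 16.6 and 15.6 against 14.7, 14.0 and 13.2 FPKM, with a log2 difference of -0.14. Erythroid markers summed to 531 to 920.2 FPKM in libraries labelled wild type and 545 to 863 in those labelled knockout. Ube2q2 (mean 18.9 FPKM) was 2.08 to 2.81 times as high as Ube2q1.

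At the bottom of the order lay Ube2c, Ube2v1, Ube2ql1 and Ube2d2b, which were too low to test. Ube2ql1 had 6, 9 and 17 fragments in libraries labelled wild type against 14, 15 and 9 in those labelled knockout. Ube2d2b, a copy of Ube2d2a with 92.6% of its coding bases, had 1, 2 and 1 fragments against 0, 0 and 0. A count of 0 allows up to 3 fragments, which is 0.171 to 0.211 FPKM here, so both labels were at or below what could be measured and no fold is given. Such limits cover counting error only. Overlap could also touch higher members: 9 of the 34 share exon bases with another gene and 4 share at least 10%, which besides Ube2v1 and Ube2c were Ube2l3 (28.6%, Ydjc, opposite strand) and Ube2e1 (16.1%, Nkiras1, opposite strand). The sources used here do not say whether strand was used in counting.

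**Figure D4:**
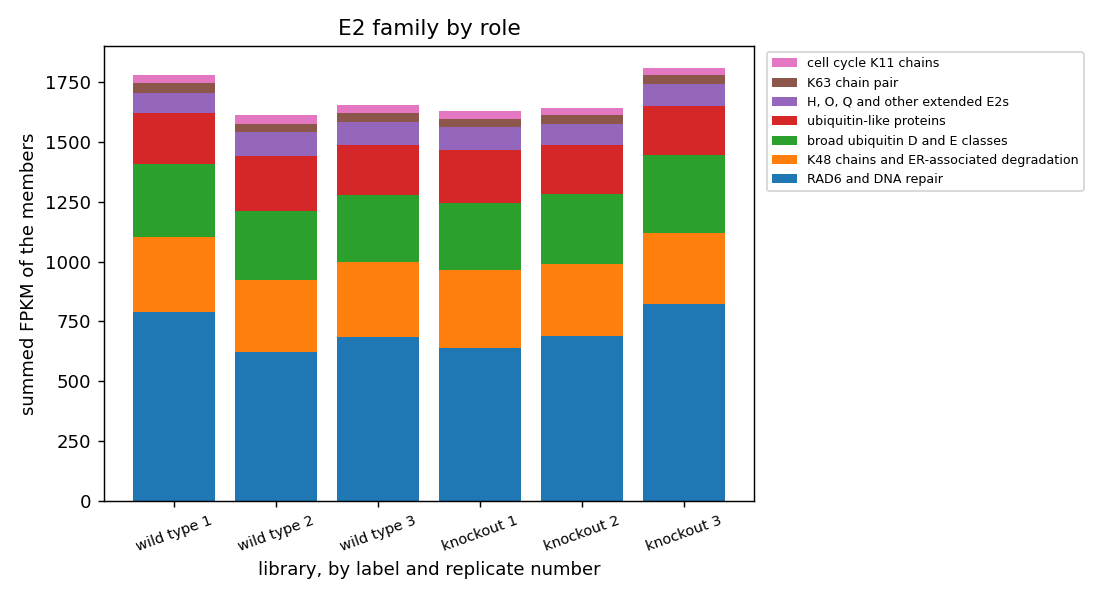
Summed FPKM of 33 members by role (stacked colours) in each library, without Ube2cbp. The RAD6 and DNA repair band, nearly all Ube2b, runs from 622 to 822 FPKM, and libraries wild type 1 and knockout 3 are the 2 tallest.

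Libraries of one label varied among themselves. The family summed to 1684 ± 88.6 FPKM in libraries labelled wild type against 1696 ± 102 in those labelled knockout, and without Ube2b to 1014 ± 15.3 and 1008 ± 27.8, so each pair of means differed by less than the SD. The highest sums were those of library 1 labelled wild type and library 3 labelled knockout. These were also the 2 highest libraries for 5 members, Ube2b, Ube2d3, Ube2d1, Ube2v2 and Ube2w, while 8.00% of all tested genes had that order, a pattern picked out after its values were seen. Library 2 labelled wild type was lowest for 10 of the 30 members, against 14.8% of all tested genes. Each of the other 5 libraries was lowest for 4 members, against 12.4% to 22.4% of all tested genes. Of the role groups, the K11 pair alone had sums that did not overlap, at 33.9, 35.3 and 32.8 FPKM against 32.6, 29.5 and 30.1. Ube2s by itself overlapped, and the sums separated only with Ube2c, at 1.65 FPKM from 23 fragments in library 3 labelled wild type. Among single tested genes, 9.48% had groups that did not overlap.

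**Figure D5:**
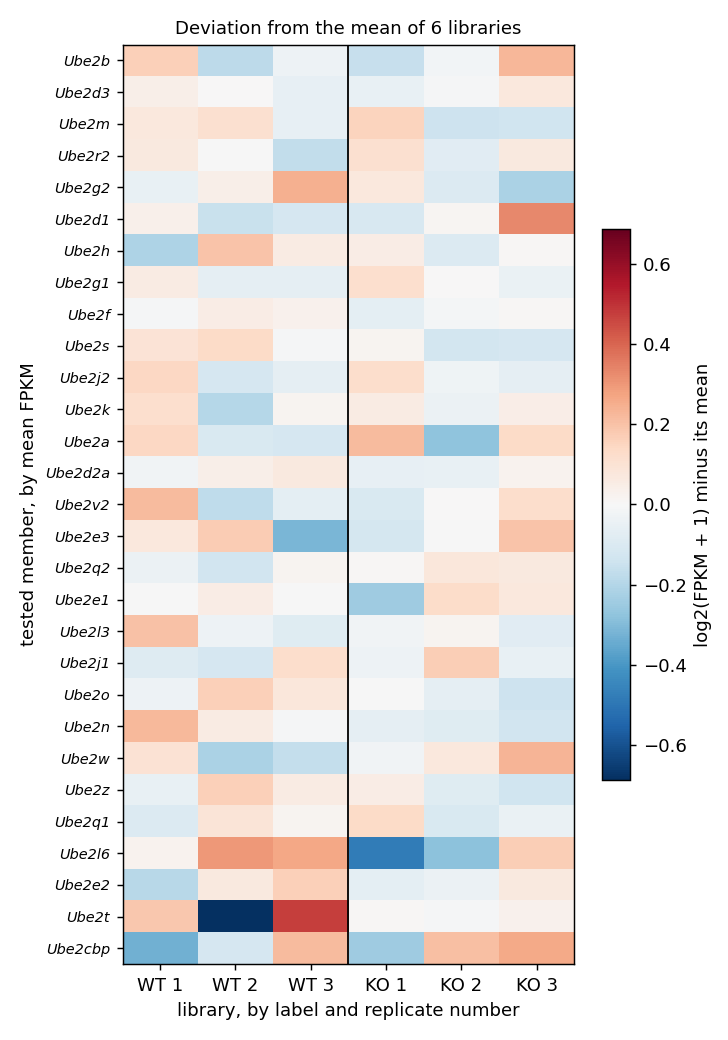
Deviation of log2(FPKM + 1) from its mean over the 6 libraries, for 29 of the 30 tested members (rows) in each library (columns), red for higher and blue for lower. No column block follows the label line, and the strongest colours belong to Ube2t and Ube2l6, both below 10 FPKM.

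The enzymes and ligases around the E2 family were looked at in 11 lists of 139 listed genes, 131 of them tested. Under the knockout label 63 of these had the higher mean and 68 the lower, with a median log2 difference of -0.01, and 0 passed the adjusted test (limma). At an unadjusted limma p below 0.05 there were 5 (3.82%), near the 4.59% of all tested genes. Groups did not overlap for 19 (14.5%), against 9.48% of all tested genes. By list, tested genes higher and lower were 4 and 6 for the E1 enzymes, 4 and 4 for E2-fold proteins with other names, 4 and 8 for ubiquitin and ubiquitin-like precursors, and 10 and 10 for RING and RBR ligases. They were 9 and 6 for cullin ligases, 4 and 7 for ERAD, 6 and 1 for N-degron and RAD6 partners, 7 and 4 for the CTLH ligase, 8 and 6 for SUMO and NEDD8 partners, and 7 and 7 for the anaphase-promoting complex.

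The 5 genes at that unadjusted level included direct partners of members. Nedd8, whose protein Ube2m and Ube2f carry, read 131, 122 and 131 FPKM in libraries labelled wild type against 103, 111 and 115 in those labelled knockout, with a log2 difference of -0.22. Cul3, a cullin that NEDD8 modifies, read 130.1, 119 and 116 against 148, 137 and 145 FPKM (0.24). Ubr1, the N-degron ligase that works with Ube2b and Ube2a, read 24.3, 23.3 and 26.8 against 27.9, 29.9 and 30.5 FPKM (0.24). In all 3 the groups did not overlap, and the adjusted p was 0.988 for each (limma). Nedd8 shares 14.6% of its exon bases with Gmpr2 on the opposite strand. The remaining 2 were Isg15 (log2 difference -0.48, from 6 to 18 fragments per library) and Atg3, the E2-fold enzyme of autophagy. Atg3 read 14.8, 14.5 and 15.4 against 13.0, 12.2 and 12.5 FPKM (-0.23). The groups of Isg15 and Atg3 did not overlap either. All 5 genes were picked by a small p, so groups that do not overlap add no support.

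The most abundant partners were named from the other lists, and none passed the test (limma). Uba1, the main ubiquitin E1, was at 94.5 ± 9.94 and 95.2 ± 8.65 FPKM (SD, n = 3 each). The muscle ligases Trim63 and Trim54 were at 114 ± 24.5 and 166 ± 8.11 FPKM in libraries labelled wild type against 116 ± 5.21 and 162 ± 16.4 in those labelled knockout. Maea and Rmnd5a, subunits of the CTLH ligase that takes Ube2h, were at 78.8 ± 3.42 and 65.5 ± 1.15 against 72.8 ± 3.83 and 71.7 ± 2.33 FPKM, with Rmnd5a groups that did not overlap (log2 difference 0.13, 95% interval -0.04 to 0.29). Anapc5, a subunit of the anaphase-promoting complex, was at 280.4 ± 13.0 and 287 ± 12.5 FPKM. Ube2c, an E2 of that complex, was near the detection limit, with a value that exon overlap leaves uncertain. Uba2, a subunit of the SUMO E1, was at 49.5 ± 1.94 and 50.9 ± 4.31 FPKM. Cops5, the subunit of the COP9 signalosome that takes NEDD8 off cullins, was at 109 ± 5.74 and 107 ± 13.2 FPKM.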

How the data were processed

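RNA-seq libraries of tibialis anterior muscle were analysed, 3 labelled wild type and 3 labelled Mettl21e knockout, grouped by their titles. The authors deposited FPKM per gene, 1 table per library. TopHat2 2.1.1, Cufflinks 2.2.1 and mm10 are named in the submitters' processing notes. Settings, annotation release, strand use and read filters: not given in the sources used here.

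For all 23559 genes above 0, FPKM values became whole fragments in all 6 libraries with 1 length per gene (100%, tolerance 0.002 of a fragment), and gene fragments were 99.7% of each recovered total. Differences were tested with limma 3.58.1 (R 4.3.3), two-sided, with a mean-variance trend, on log2(FPKM + 1) over the 11383 genes that averaged 1 FPKM or more, without further scaling. This scale understates changes of low genes. Adjusted p-values are Benjamini-Hochberg over all tested genes, threshold 0.05. limma voom was run on the fragments. Steps across genes were tested on simulated data. Members, gene lists and tests were chosen with earlier results of these data known, so no p is given over the family. Given library by library were the 12 most abundant members, those with an unadjusted p below 0.05, those with groups that do not overlap and the highest of each role. Others given so (Ube2a, Ube2l6, Ube2w, Ube2o, Ube2t and the 4 members below 1 FPKM) were chosen after their values were seen. Of these, 1 member is not reported singly here, nor is 1 partner gene; counts and sums include them. From each list came members with an unadjusted p below 0.05, otherwise up to 2 of the highest. Alternatives covered scaling, pseudocount, filter, replicate block, variance trend, voom, gene length and each library left out. Coordinates, exon overlaps, 50-base words and coding windows came from GENCODE M21, promoters from RefSeq. Poisson intervals (95%) and a floor of 3 fragments cover counting error only. Ube2d2a is on chromosome 18 and its sequence is not printed.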

Additional observations from a re-analysis of the deposited data

How the results depend on the processing

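Across 17 members and 14 alternatives, 224 of 238 recomputed log2 differences kept their direction, and the smallest adjusted p was 0.377 (limma). Changing the filter, adding the replicate block or dropping the variance trend cannot alter these differences, so their direction was fixed in advance there. Ube2l6, Ube2w and Ube2o, chosen after their values were seen, were among the members recomputed. The 14 differences that reversed belonged to 6 members, and 13 of them came from leaving out a library. Leaving out each library in turn gave ranges of -0.070 to 0.13 for Ube2b, -0.14 to 0.067 for Ube2h, -0.034 to 0.099 for Ube2j2, -0.070 to 0.13 for Ube2v2, -0.023 to 0.037 for Ube2d3 and -0.0012 to 0.12 for Ube2r2, and -0.068 to 0.63 for Mettl21e (negative without library 2 labelled wild type). After median subtraction, which moved the median of all genes from -0.02 to 0.02, Ube2h was at 0.022. The genes called over the whole table numbered 0 to 3 with a library left out (3 without wild-type library 3, 1 without wild-type library 1 and 1 without knockout library 3, by label), and members called stayed at 0. Members at an unadjusted p below 0.05 (limma) numbered 0 to 2 (Ube2w and Ube2l6 without wild-type library 1, Ube2l6 without knockout library 3). With no filter on low values there was 1 (Ube2d2b), while 4.19% of all genes above 0 reached that level. Ube2d2b became a member only through the libraries labelled wild type, so its unfiltered results draw on the values that let it in and show no difference. Members with groups that did not overlap numbered 1 to 12: 12 without wild-type library 1, 9 without knockout library 1, 4 without library 3 of either label and 2 without wild-type library 2. Over all tested genes the shares were 30.3% without wild-type library 1, 23.2% without knockout library 1 and 15.9% to 17.0% without each of the others. An unadjusted limma p below 0.05 was reached by 11.9% of all tested genes without wild-type library 1 and by 3.57% without knockout library 3. Members whose groups did not overlap numbered 2 after median subtraction (Ube2q2 among them), 2 after quantile normalization (Ube2q2, Ube2n) and 2 with no filter (Ube2d2b, Ube2n). In the same order, the shares over all genes were 9.90%, 9.84% and 7.63%. With the replicate number as a block, 1 member, Ube2l6, had an unadjusted p below 0.05 (0.0288, adjusted p = 0.993, limma). Of all tested genes 4.15% reached that level with the block. Libraries of the same number did not deviate together (correlations 0.0236, -0.0408 and 0.0232), so no pairing is assumed. The share of Ube2b in the family was 39.4% to 40.7% with a library left out, 24.6% in fragments not divided by length and 43.7% per exon-union base. The cause of the other shifts was not tested. Depth limits Ube2c, Ube2v1, Ube2ql1 and Ube2d2b, which had at most 23 fragments in any library. For Ube2c and Ube2v1, exon overlap with Tnnc2 and Gm20431 also leaves the values uncertain.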
